A study of Rattus norvegicus with 6 samples.

Results

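The receptors for bradykinin, angiotensin II, the endothelins and the natriuretic peptides, together with the angiotensin-converting enzyme, were followed in rat atrial fibroblasts after transfection with an siRNA against GPD1L. These 10 genes, Bdkrb1, Bdkrb2, Agtr1a, Agtr2, Ace, Ednra, Ednrb, Npr1, Npr2 and Npr3, were taken by name from a gene table of 40154 genes, and all 10 were found there. None was too low to test, although Agtr2, with 5 to 15 raw counts per library, passed the filter on low counts narrowly. The study asked whether GPD1L, a glycerol-3-phosphate dehydrogenase-like enzyme, takes part in atrial fibrosis.

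The cells came from the hearts of Sprague-Dawley rats 1 to 3 days old, and the label gives the tissue as atrial muscle. They were grown in 10% fetal bovine serum and separated from myocytes by letting non-myocytes attach for 1.5 h. One group received the control siRNA, si-NC, and the other received si-GPD1L, and both were sequenced 24 h later with 3 libraries in each group. All 6 samples also carry the treatment label "Atrial differentiation". The labels do not say whether the 3 libraries of a group came from separate cultures or animals, nor whether the digit in si-GPD1L1 to si-GPD1L3 numbers replicates or different siRNAs, so the p-values measure the spread between these libraries only. These are primary cells, not a line, and other heart cells may remain after attachment.

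All these peptides act on cells of the vessel wall and the heart through receptors at the cell surface. Bradykinin, angiotensin II and the endothelins bind G-protein-coupled receptors that act mainly through Gq, phospholipase C and calcium, whereas the natriuretic peptides bind receptors that are themselves guanylyl cyclases and make cGMP, apart from the clearance receptor Npr3. In cardiac fibroblasts angiotensin II and endothelin-1 are known for promoting matrix production, and natriuretic peptides and bradykinin are known for opposing it in many settings.

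Bdkrb2, which encodes the bradykinin B2 receptor, rose after si-GPD1L, and Agtr1a and Ednrb, which encode the type 1a angiotensin II receptor and the endothelin B receptor, fell. The other 7 genes did not pass the test. In the comparison of all genes by edgeR's quasi-likelihood test with Benjamini-Hochberg adjustment, 6.36% of the 14852 genes tested had an adjusted p-value under 0.05, 4.03% higher and 2.33% lower in si-GPD1L. Of the 10 genes, 1 was higher and 2 were lower at this threshold. Where the log2 fold change also had to exceed 1 in size, 1.62% of all genes passed (1.48% higher and 0.135% lower), and of the 10 genes only Bdkrb2 did. The median log2 fold change of the 10 was -0.07, beside -0.0049 over all genes tested.

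**Figure D1:**
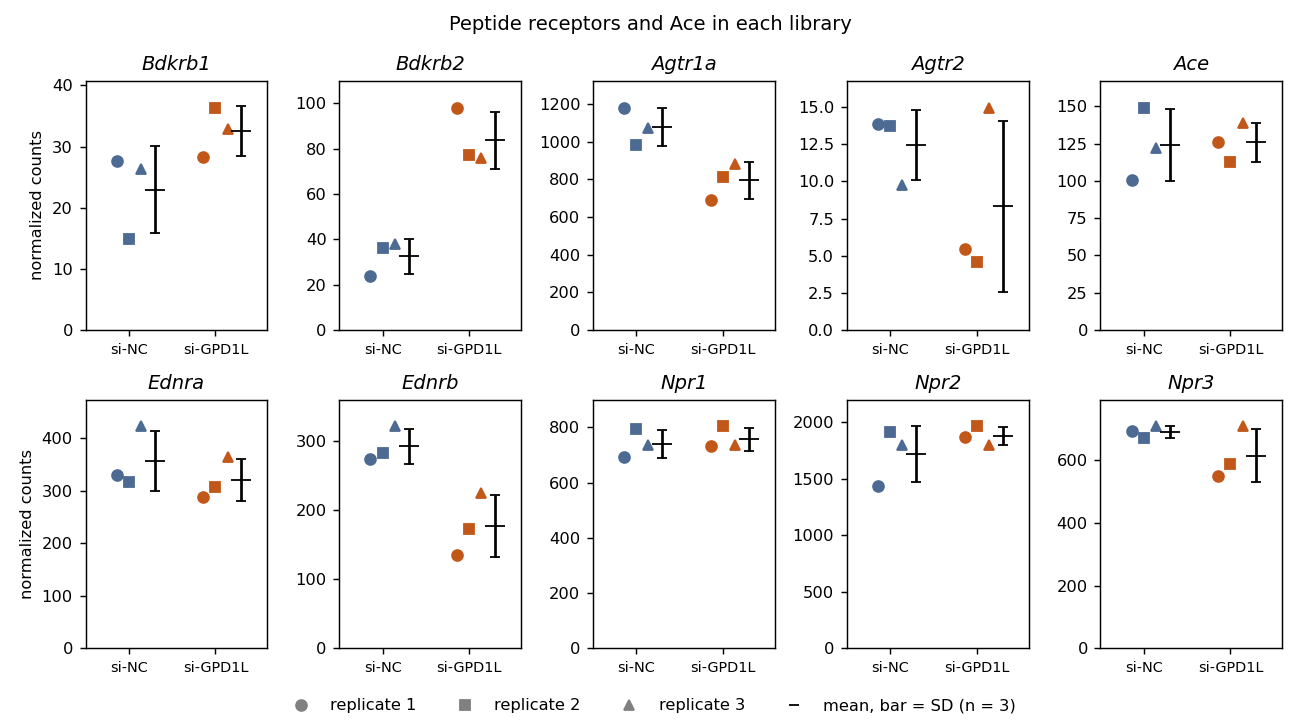
Normalized counts (vertical axes, each from 0, counts scaled to the mean library size) of the 10 genes in the 3 si-NC and the 3 si-GPD1L libraries, with 1 symbol per replicate number and the mean with its SD (n = 3) at the right of each group. The 3 si-GPD1L libraries lie above all si-NC libraries for Bdkrb2, at 75.9 to 98.1 against 23.7 to 38.1, and below them for Agtr1a and Ednrb.

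Library totals ran from 16892255 to 20149732 counts, and where a gene has 0 counts its true count may be as high as 3, for counting error alone. No libraries were alike within sampling noise, and si-NC replicate 1 stood apart from the other si-NC libraries (chi-square per degree of freedom 21.7 and 30.3, beside 9.09 between the other pair). The targeted gene, Gpd1l, had 265, 314 and 321 raw counts with si-NC, against 202, 229 and 303 in those labelled si-GPD1L. The groups overlapped, and the log2 fold change of -0.31 (SE 0.15) did not pass the test (adjusted p = 0.234, edgeR). Interferon-stimulated genes moved with the groups: Mx2, named here from earlier results of these data, had 5 to 9 raw counts with si-NC and 4303 to 6091 with si-GPD1L. The part of these genes in the differences below was not tested. Of 12 fibroblast markers all were measured in every library, with summed levels of 77685 to 95926 CPM (counts scaled to a common total) with si-NC and 91446 to 96166 with si-GPD1L, and 2 of them, Dcn and Lum, fell. Col1a1 and Col3a1 made up most of these sums, and 9 of the 12 log2 fold changes were below 0 and 3 above. Cardiomyocyte markers were also present, at 1690 to 1864 and 1608 to 1754 CPM, with 0 of 12 passing the test. Of the smooth muscle and pericyte markers, 2 of 12 rose (Cspg4 and Mcam) and 1 fell (Des). The other log2 fold changes in this list did not pass, and in all 10 of the 12 were below 0 and 2 above. The summed level of the list was 6981 to 7186 CPM with si-NC and 6453 to 6614 with si-GPD1L. None passed among the 15 macrophage and 7 mesothelial and epicardial markers tested.

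The kinin receptors are the B2 receptor, which many cell types carry at all times, and the B1 receptor, which is induced by injury and cytokines. Their genes lie side by side on the plus strand of chromosome 6 in the rn6 coordinates of the gene table. Bdkrb2 (NCBI gene 25245) spans chr6:129399468-129429676 and Bdkrb1 (NCBI gene 81509) spans chr6:129437423-129441553, with 7.75 kb between the end of the first and the start of the second.

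Bdkrb2 had 24, 34 and 39 raw counts with si-NC and 90, 85 and 76 with si-GPD1L. The groups did not overlap, and the lowest si-GPD1L library lay well above the highest si-NC library. Normalized counts were 32.6 ± 7.74 (SD, n = 3) with si-NC and 83.7 ± 12.5 (SD, n = 3) with si-GPD1L. This was a rise of 2.56-fold, with a 95% confidence interval of 1.82 to 3.599 (log2 fold change 1.36, SE 0.23, adjusted p = 0.00333, edgeR). Bdkrb2 kept an adjusted p-value under 0.05 in 15 of 15 other settings, with log2 fold changes from 0.90 to 1.49, the lowest of which came from log2(TPM + 1), a scale that understates changes of low genes.

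The neighbouring Bdkrb1 was lower in count and less certain. It had 28, 14 and 27 raw counts with si-NC and 26, 40 and 33 with si-GPD1L. After normalization every si-GPD1L library was above every si-NC library, but the gap was narrow, 28.3 in the lowest si-GPD1L library against 27.7 in the highest si-NC library. Of all genes tested, 29.0% had groups that did not overlap, 15.1% higher and 13.9% lower in si-GPD1L; of the 10 genes, 4 did, 2 in each direction. The log2 fold change of Bdkrb1 was 0.50 (SE 0.30, 95% confidence interval -0.14 to 1.14) and did not pass the test (adjusted p = 0.347, edgeR). The interval includes both no difference and a doubling of its level, which corresponds to a log2 fold change of 1.

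The log2 ratio of Bdkrb2 to Bdkrb1 within a library, computed on counts plus 0.5, was -0.22, 1.25 and 0.52 with si-NC and 1.77, 1.08 and 1.19 with si-GPD1L. The groups overlapped, since si-NC replicate 2 had few Bdkrb1 counts. The means were 0.52 ± 0.73 and 1.35 ± 0.37 (SD, n = 3; exact two-sided permutation p = 0.3). With 3 libraries a group this test cannot give a p below 0.1, so it could make no call on any ratio.

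Markers of endothelial cells, which also carry B2 receptors, had a higher summed level in si-GPD1L. Their summed level was 109 to 133 CPM with si-NC and 146 to 152 with si-GPD1L, and 4 of the 11 tested of 12 rose (Cdh5, Pecam1, Plvap and Tie1), with 0 lower. Plvap had the largest of these differences, a log2 fold change of 1.44 (SE 0.18, adjusted p = 0.000351, edgeR). None of the 12 was at 0 in every library. Flt1, which did not pass the test (log2 fold change 0.12), made up the largest part of the summed level. More cells of a type and more RNA per cell cannot be told apart in bulk samples, and the part of these cells in the rise of Bdkrb2 was not tested.

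The kinin precursors and the proteases that release kinins were nearly absent from the counts. Kng1, which encodes kininogen, had 1 count in si-NC replicate 2 and 0 elsewhere. Klkb1, plasma prekallikrein, had 3 to 9 counts, and Klk1 and F12 had 0 in every library. None of the 6 genes listed for this group could be tested, since Kng2 and Kng2l1 were not matched by symbol and the other 4 failed the filter.

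Promoter sequences of the genes that fell are shown with that of Ednra, the partner of Ednrb that did not pass the test, so that they can be read side by side. They are the 250 bases before the RefSeq start in the GRCr8 assembly, 5′ to 3′ on the strand of the gene, and capitals mark matches of the motifs searched, the TATA box (TATAAA) and the GC box (GGGCGG). The window of Agtr1a is chr17:34435433-34435682 on the minus strand, that of Ednrb chr15:87086766-87087015 on the minus strand and that of Ednra chr19:47137674-47137923 on the plus strand. Of the 10 genes, 8 matched an entry of RefSeq's table, and Bdkrb2 and Npr2 did not.
Agtr1a: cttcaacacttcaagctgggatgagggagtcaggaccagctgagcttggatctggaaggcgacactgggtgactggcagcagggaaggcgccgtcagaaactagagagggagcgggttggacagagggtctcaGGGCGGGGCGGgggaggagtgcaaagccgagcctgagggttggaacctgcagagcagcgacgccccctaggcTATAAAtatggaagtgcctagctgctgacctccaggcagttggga
Ednrb: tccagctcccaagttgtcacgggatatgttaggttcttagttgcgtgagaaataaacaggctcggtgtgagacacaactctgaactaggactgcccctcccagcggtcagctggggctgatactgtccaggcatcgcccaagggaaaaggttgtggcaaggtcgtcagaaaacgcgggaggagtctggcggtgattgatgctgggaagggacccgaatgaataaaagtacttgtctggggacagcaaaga
Ednra: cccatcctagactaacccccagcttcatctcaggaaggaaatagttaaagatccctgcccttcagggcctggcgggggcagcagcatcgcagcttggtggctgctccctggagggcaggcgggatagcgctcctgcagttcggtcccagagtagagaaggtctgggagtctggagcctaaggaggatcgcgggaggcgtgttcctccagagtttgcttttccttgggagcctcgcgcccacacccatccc

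Agtr1a held a TATA box 45 to 40 bases before the start and a pair of GC boxes that share their bases in part, 117 to 107 bases before it. Neither Ednrb nor Ednra held any of the 5 motifs searched on both strands, which also included the interferon-stimulated response element (ISRE), the STAT motif GAS (TTCNNNGAA) and the AP-1 motif (TGANTCA). Among the 8 promoters, TATA boxes were also found in Ace, GC boxes in Ace and Npr1, and a GAS match in Npr3, and none held ISRE or AP-1 letters. Of all 33469 RefSeq promoters in windows of the same length, 3.41% held the ISRE, 7.67% GAS, 6.34% AP-1, 12.9% the TATA box and 30.5% the GC box. A match is a match of letters only, and a window without one says nothing of the factor.

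Angiotensin II acts in the rat through 2 type 1 receptors, from Agtr1a and its duplicate Agtr1b, and through the type 2 receptor, from Agtr2, whose effects often oppose those of type 1. Agtr1a (NCBI gene 24180) lies on the minus strand at chr17:35907102-35958136 in rn6. It had 1193, 927 and 1096 raw counts with si-NC and 631, 894 and 882 with si-GPD1L. Every si-GPD1L library was below every si-NC library, but si-GPD1L replicates 2 and 3 lay close to si-NC replicate 2. Normalized counts were 1179, 981 and 1070 with si-NC and 688, 812 and 880 with si-GPD1L, and the groups did not overlap on this scale either.

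Mean normalized counts of Agtr1a fell from 1077 ± 99.5 to 794 ± 97.6 (SD, n = 3). The log2 fold change was -0.44 (SE 0.099, 95% confidence interval -0.65 to -0.22, adjusted p = 0.0221, edgeR), which is a level of 0.738 times that of si-NC. With si-GPD1L replicate 1 left out, the log2 fold change was -0.35 and no longer passed (adjusted p = 0.127, edgeR). With si-GPD1L replicate 2 left out, it was -0.46 and also did not pass (adjusted p = 0.103, edgeR). In these smaller designs the lower calls over all genes went from 346 to 67 without replicate 1 and to 53 without replicate 2. All 4 transcript rows of Agtr1a fell, with log2 fold changes between -0.45 and -0.44, and all 4 missed the threshold without either of these libraries. They share reads, since their counts add to 3.65 times the gene count. Agtr1b, whose coding sequence closely resembles that of Agtr1a, had 0 counts in every library, and how the counting treated reads that match both is not given in the sources used here.

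Agtr2 (NCBI gene 24182, chrX:119389480-119393845, plus strand, rn6) was the lowest of the 10 genes. Its raw counts were 14, 13 and 10 with si-NC and 5, 5 and 15 with si-GPD1L. Replicate 3 of si-GPD1L was above all si-NC libraries, whereas replicates 1 and 2 were below them. The log2 fold change was -0.58 (SE 0.49, 95% confidence interval -1.63 to 0.48, adjusted p = 0.525, edgeR). At these counts and with this spread between libraries, the difference could not be told from 0.

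Ace, which encodes the enzyme that makes angiotensin II and breaks down bradykinin, did not pass the test. Ace (NCBI gene 24310, chr10:94170766-94213831, plus strand, rn6) had 102, 141 and 125 raw counts with si-NC and 116, 124 and 139 with si-GPD1L. The si-GPD1L libraries lay within the range of the si-NC libraries. The log2 fold change was 0.023 (SE 0.17, 95% confidence interval -0.34 to 0.38, adjusted p = 0.955, edgeR), an interval of 0.791 to 1.31 times the si-NC level.

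Of the 8 other genes listed for angiotensin peptides and their enzymes, 4 were tested and 1 passed, with a median log2 fold change of -0.19. Enpep, which encodes aminopeptidase A, the enzyme that trims angiotensin II to angiotensin III, had 594, 479 and 608 raw counts with si-NC and 298, 443 and 407 with si-GPD1L. The groups did not overlap, and Enpep fell with a log2 fold change of -0.57 (SE 0.11, adjusted p = 0.00806, edgeR). Agt, which encodes angiotensinogen, had 24 to 31 raw counts in the 6 libraries (log2 fold change -0.07, SE 0.26, adjusted p = 0.90, edgeR). Among the 5 other receptors and receptor-binding proteins listed, 0 of the 3 tested passed in either direction (median log2 fold change 0.079).

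The endothelin A and B receptors bind endothelin-1, the A receptor being the usual one on contractile cells and fibroblasts and the B receptor also clearing the peptide. Ednra (NCBI gene 24326, chr19:33928356-33991703, plus strand, rn6) had 334, 299 and 433 raw counts with si-NC and 264, 337 and 365 with si-GPD1L. These ranges overlapped. The log2 fold change was -0.16 (SE 0.13, 95% confidence interval -0.44 to 0.12) and did not pass the test (adjusted p = 0.511, edgeR).

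Ednrb (NCBI gene 50672, chr15:88004775-88036354, minus strand, rn6) had 277, 268 and 330 raw counts with si-NC and 124, 190 and 225 with si-GPD1L. Every si-GPD1L library of this gene, whose promoter is printed above, was below every si-NC library, with replicate 1 the lowest. Normalized counts fell from 293 ± 25.5 to 177 ± 44.9 (SD, n = 3), with a log2 fold change of -0.72 (SE 0.16, 95% confidence interval -1.06 to -0.38, adjusted p = 0.0182, edgeR), a level of 0.607 times that of si-NC. The fall missed the threshold when si-GPD1L replicate 1 was left out (log2 fold change -0.57, adjusted p = 0.0808, edgeR), without si-GPD1L replicate 2 (-0.70, adjusted p = 0.103) and without si-NC replicate 2 (-0.75, adjusted p = 0.0539). Of its 3 transcript rows, 2 passed the test, at -0.75 and -0.73, and the shortest, NM_017333.1, did not (-0.62, adjusted p = 0.0690, edgeR). These calls changed with the setting: NM_017333.1 passed with no filter beyond 1 count (-0.62, adjusted p = 0.0441, edgeR) and when si-NC replicate 1 was left out (-0.71, adjusted p = 0.0141), and the other rows missed the threshold with si-GPD1L replicate 1 or 2 left out (adjusted p from 0.0849 to 0.115). In the transcript table as a whole 5.89% of the 37822 rows tested passed, 3.58% higher and 2.30% lower.

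Ednrb is also carried by endothelial cells, Schwann cells and neural crest derivatives. Of the endothelial markers given above, 4 of the 11 tested passed as higher in si-GPD1L and 0 as lower. The summed level of Schwann cell and neural crest markers was 13.7 to 14.4 CPM with si-NC and 9.98 to 13.5 with si-GPD1L, and 0 of the 7 tested of 8 passed. None of these 8 was at 0 in every library. The part of endothelial, Schwann or neural crest cells in the fall of Ednrb was not tested.

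The log2 ratio of Ednra to Ednrb within a library was 0.27, 0.16 and 0.39 with si-NC and 1.09, 0.83 and 0.70 with si-GPD1L. The groups did not overlap, the lowest si-GPD1L value being above the highest si-NC value. The mean was 0.27 ± 0.12 with si-NC and 0.87 ± 0.20 with si-GPD1L (SD, n = 3), a difference of 0.60. The exact two-sided permutation test gave p = 0.1, the smallest that this design allows, and an adjusted p = 0.3 over the 3 receptor pairs compared, so no call could be made.

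**Figure D2:**
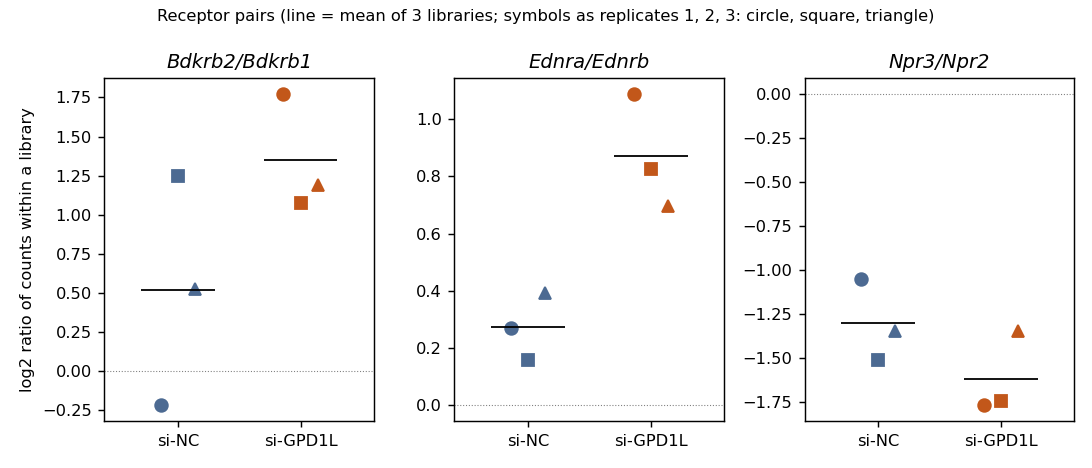
Log2 ratio of the counts of 2 receptors within each library (vertical axes) for Bdkrb2 to Bdkrb1, Ednra to Ednrb and Npr3 to Npr2 in si-NC and si-GPD1L, where symbols are the 3 libraries and lines their means. For Ednra to Ednrb the si-GPD1L libraries, at 0.70 to 1.09, lie above the si-NC libraries, at 0.16 to 0.39, and for the other pairs the groups overlap.

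Edn1, which encodes endothelin-1, was well measured and close between the groups, with 621 to 814 raw counts with si-NC and 681 to 749 with si-GPD1L (log2 fold change 0.013, SE 0.11, adjusted p = 0.964, edgeR). Edn2 and Edn3 had 0 counts in every library. Ece1, which encodes the enzyme that cuts the endothelin precursor, had 2341 to 2552 and 2672 to 3306 raw counts and did not pass the test (log2 fold change 0.22, SE 0.073, adjusted p = 0.0919, edgeR). Of the 6 genes listed for endothelins and their enzymes, 3 were tested and 0 passed (median log2 fold change 0.078).

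Of the natriuretic peptide receptors, Npr1 is the cyclase for the atrial and brain peptides, Npr2 is the cyclase for the C-type peptide, and Npr3 mainly takes up and clears all of them. Npr1 (NCBI gene 24603, chr2:189840403-189857032, minus strand, rn6) had 700, 749 and 755 raw counts with si-NC and 671, 885 and 736 with si-GPD1L. The groups overlapped, and the log2 fold change of 0.033 (SE 0.082, 95% confidence interval -0.15 to 0.21) did not pass the test (adjusted p = 0.857, edgeR). As a fold, the interval ran from 0.904 to 1.16.

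Npr2 (NCBI gene 116564, chr5:59128186-59147321, plus strand, rn6) had the most counts of the 10 genes, 1456, 1809 and 1843 with si-NC and 1714, 2161 and 1805 with si-GPD1L. The groups overlapped, with si-NC replicate 1 low (log2 fold change 0.13, SE 0.096, 95% confidence interval -0.08 to 0.34, adjusted p = 0.462, edgeR). Npr3 (NCBI gene 25339, chr2:61883946-61950291, minus strand, rn6) had 702, 634 and 726 raw counts with si-NC and 503, 646 and 710 with si-GPD1L. Replicates 1 and 2 of si-GPD1L were below all si-NC libraries after normalization, at 548 and 587 against 671 to 709, and replicate 3, at 709, was not. The log2 fold change was -0.17 (SE 0.098, 95% confidence interval -0.38 to 0.045, adjusted p = 0.338, edgeR).

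The log2 ratio of Npr3 to Npr2 was -1.05, -1.51 and -1.34 with si-NC and -1.77, -1.74 and -1.35 with si-GPD1L. The groups overlapped through the third si-GPD1L library. The means of -1.30 ± 0.23 and -1.62 ± 0.24 (SD, n = 3) differed by -0.32 (exact two-sided permutation p = 0.2, adjusted p = 0.3), and here too the design allows no p below 0.1 and so no call.

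The ligands of these receptors include Nppa, an atrial myocyte product, which had 6920 to 8430 raw counts with si-NC and 6084 to 7101 with si-GPD1L. Its groups did not overlap after normalization, but it did not pass the test (log2 fold change -0.22, SE 0.085, adjusted p = 0.152, edgeR). Nppb had 464 to 718 and 499 to 598 raw counts (log2 fold change -0.13, SE 0.13, adjusted p = 0.612, edgeR). Nppc, the C-type peptide made by vascular and stromal cells, had only 16 to 33 and 7 to 20 raw counts, and its log2 fold change of -1.03 (SE 0.44) did not pass (adjusted p = 0.189, edgeR). Of the 6 genes listed for natriuretic peptides and their enzymes, 4 were tested and 0 passed (median log2 fold change -0.17).

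**Figure D3:**
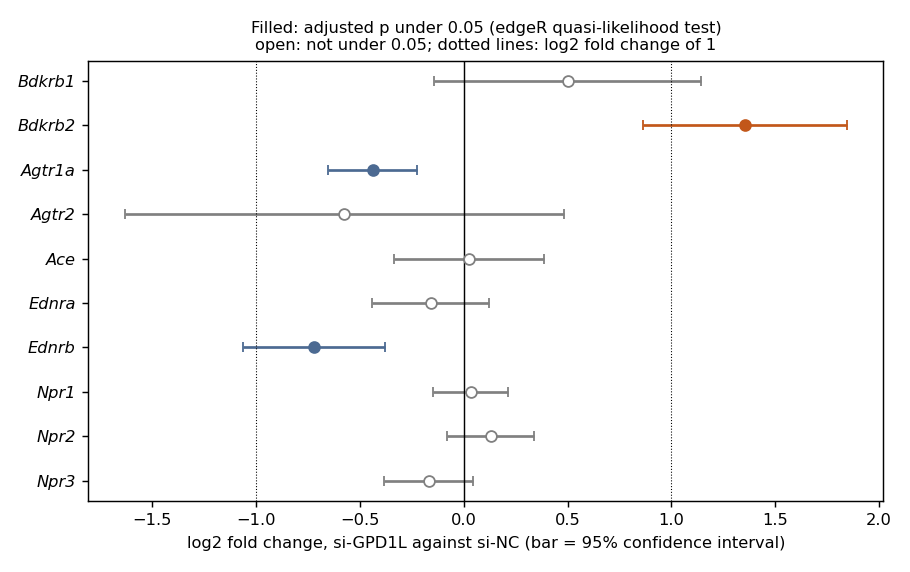
Log2 fold change of each of the 10 genes in si-GPD1L against si-NC (horizontal axis) with a 95% confidence interval derived from edgeR's quasi-likelihood test on 3 libraries per group, filled where the adjusted p-value was under 0.05. Bdkrb2 (1.36) lies to the right of 0, Agtr1a (-0.44) and Ednrb (-0.72) to the left, and the intervals of the other 7 include 0.

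Levels were compared between the genes only as TPM, the deposited value per transcript length, and the order of the genes is a description with no test. In si-NC, Agtr1a was the highest, at 52.9 to 59.0 TPM, and overlapped Npr2, at 41.5 to 59.5. Npr1 (18.04 to 22.3 TPM) and Npr3 (11.3 to 12.7) followed, each apart from its neighbours. Ednra (7.29 to 10.2 TPM) and Ednrb (6.996 to 9.01) overlapped, and Ace (3.54 to 5.65) was below them. The kinin receptors were near 1 TPM and overlapped, Bdkrb2 at 0.696 to 1.22 and Bdkrb1 at 0.639 to 1.15, and Agtr2 was last at 0.425 to 0.590.

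In si-GPD1L the order of the first pair was exchanged, with Npr2 at 58.3 to 63.8 TPM above Agtr1a at 38.3 to 49.5, and these ranges did not overlap. Ednra, at 7.07 to 9.02 TPM, and Ednrb, at 3.84 to 6.44, no longer overlapped, whereas Ednrb overlapped Ace at 4.46 to 5.47. Bdkrb2, at 2.50 to 3.20 TPM, stood above Bdkrb1 at 1.26 to 1.64. Even so, Bdkrb2 after its rise was still below every other receptor in the set except Bdkrb1 and Agtr2. Counts scaled by gene length and by library total gave the same order in both groups.

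**Figure D4:**
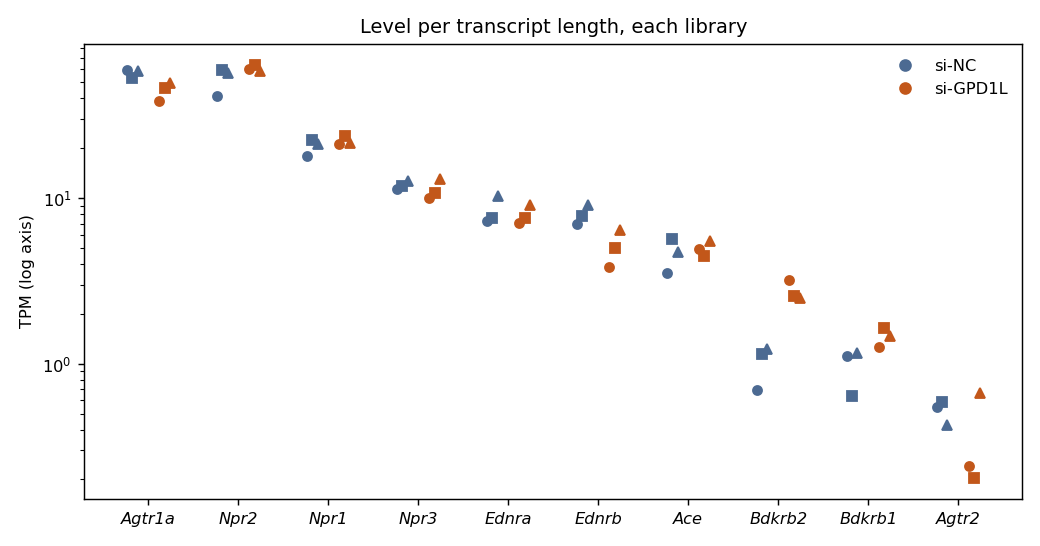
TPM of the 10 genes in each library (vertical axis, log scale), ordered by the si-NC mean, with si-NC in blue and si-GPD1L in orange and circles, squares and triangles for replicates 1, 2 and 3. Agtr1a and Npr2 lie above 38 TPM in every library, and the kinin receptors and Agtr2 lie at 3.20 TPM or lower.

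Within si-GPD1L, replicate 1 held the lowest normalized count of all 6 libraries for Agtr1a, Ednra, Ednrb and Npr3 and the highest for Bdkrb2. Over the 6 libraries the log2 CPM of Agtr1a and Ednrb had a Pearson r of 0.92, those of Agtr1a and Bdkrb2 an r of -0.95, and those of Ednrb and Npr3 an r of 0.91. These 6 points share the difference between the groups and are given as a description. By the same measure, over tested genes averaging 50 or more normalized counts, the genes most like Bdkrb2 were Ccdc6 and Lima1 (r = 0.997 each), those most like Agtr1a were Ctsc (0.998) and Hs6st2 (0.997), and Lgmn was like Ednrb (0.996). The genes most like Npr3 were Zeb2 (0.999) and Mylip (0.991). For the other 6 genes they were Exosc2 and Golt1b (Bdkrb1), Tmem120b and Kcnj2 (Agtr2), Lcat and Dcps (Ace), Btbd7 and Atp7a (Ednra), Acot3 and Ttc16 (Npr1), and Ikbke and Lonp1 (Npr2), with r from 0.973 to 0.998. Each was picked as the highest among 11882 or 11883 candidate genes over only 6 libraries, so values this high can arise for any gene. Genes that did not pass the test reached them too, and shared regulation was not tested.

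The steps after the receptors were measured in lists of genes. Calls in these lists stand beside 6.36% of all genes tested that passed, 4.03% higher and 2.33% lower. Calls of single listed genes come from the main comparison only and were not followed in the other settings. Of the 18 genes listed for Gq and Gi transduction, all were tested, 1 rose and 0 fell, and the median log2 fold change was 0.12. Itpr3, which encodes a calcium channel of the endoplasmic reticulum opened by inositol trisphosphate, had 471, 683 and 746 raw counts with si-NC and 867, 1014 and 883 with si-GPD1L. It rose with a log2 fold change of 0.52 (SE 0.14, adjusted p = 0.0432, edgeR). Of the 14 genes listed for receptor desensitisation, 11 were tested and 1 rose, with a median log2 fold change of 0.14. Grk6, a G-protein-coupled receptor kinase, had a log2 fold change of 0.29 (SE 0.075, adjusted p = 0.0413, edgeR).

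Of the 19 genes listed for the cGMP pathway, 12 were tested, 1 rose and 2 fell, with a median log2 fold change of -0.10. Nos3, the endothelial nitric oxide synthase, had 69, 57 and 72 raw counts with si-NC and 125, 133 and 125 with si-GPD1L. The groups did not overlap, and Nos3 rose with a log2 fold change of 0.94 (SE 0.15, adjusted p = 0.00297, edgeR), alongside the endothelial markers given above. Pde3b, a phosphodiesterase of cAMP that cGMP inhibits, had 985, 874 and 946 raw counts with si-NC and 421, 655 and 659 with si-GPD1L. It fell with a log2 fold change of -0.72 (SE 0.11, adjusted p = 0.00200, edgeR). Pde2a, a phosphodiesterase that cGMP stimulates, fell with a log2 fold change of -0.54 (SE 0.11, adjusted p = 0.0117, edgeR). The subunits of soluble guanylyl cyclase, listed as Gucy1a3 and Gucy1b3, and the cGMP-dependent kinase Prkg1 did not pass, with log2 fold changes of -0.31, -0.08 and -0.10.

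Of the 14 peptidases listed that break down kinins and the other peptides, 11 were tested and 1 rose, with a median log2 fold change of 0.083. Prep, prolyl endopeptidase, had 1164 to 1312 raw counts with si-NC and 1365 to 1648 with si-GPD1L, with a log2 fold change of 0.27 (SE 0.067, adjusted p = 0.0352, edgeR). Mme, neprilysin, which degrades natriuretic peptides and bradykinin, had 339 to 431 and 406 to 512 raw counts and did not pass (log2 fold change 0.25, SE 0.093, adjusted p = 0.128, edgeR).

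Among 48 other receptors for vasoactive signals, 38 were tested, 1 rose and 1 fell, with a median log2 fold change of -0.096. P2ry1, a receptor for ADP, had 300 to 352 raw counts with si-NC and 447 to 476 with si-GPD1L and rose with a log2 fold change of 0.49 (SE 0.096, adjusted p = 0.00959, edgeR). Adora2a, a receptor for adenosine, had 42, 33 and 48 raw counts with si-NC and 5, 18 and 22 with si-GPD1L and fell with a log2 fold change of -1.47 (SE 0.37, adjusted p = 0.0360, edgeR). In every one of these lists most genes did not pass the test. Lists with 1 or 2 calls among 11 to 38 tested genes were near the 6.36% over all genes. Larger shares, on few genes, were those of the cGMP list, with 1 higher and 2 lower among 12 tested, and of the angiotensin enzymes, with 1 lower among 4.

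**Figure D5:**
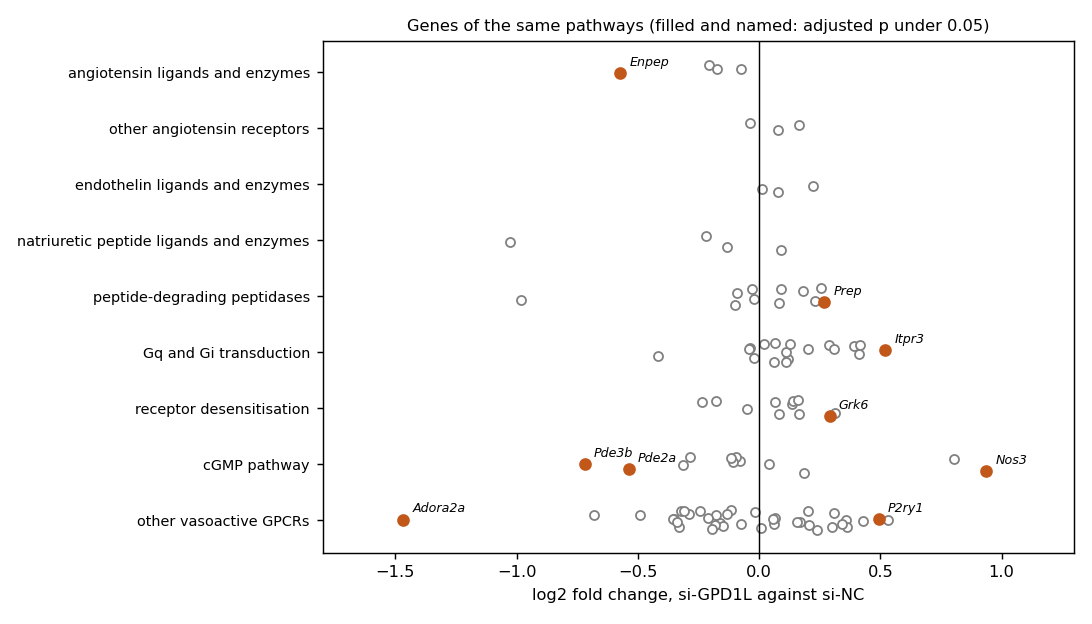
Log2 fold change in si-GPD1L against si-NC (horizontal axis) of each tested gene in 9 of the pathway lists, with a filled and named point where edgeR's adjusted p-value was under 0.05 and an open point otherwise. The 9 filled points are Enpep, Prep, Itpr3, Grk6, Nos3, Pde2a, Pde3b, P2ry1 and Adora2a, and lie from -1.47 (Adora2a) to 0.94 (Nos3).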

How the data were processed

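Poly(A) RNA of 6 samples of atrial fibroblasts, si-NC and si-GPD1L with 3 libraries each, was sequenced by Illumina paired-end reads. The submitters' processing notes name bcl2fastq, HISAT2 2.1.0, HTSeq 0.12.4 and the rn6 build, and the strand setting of the counting is not given in the sources used here. The authors deposited whole-number counts per gene and per transcript, not normalized, and TPM values scaled by length. Their own comparison (log2 fold changes, p-values and q-values) and enrichment tables were not used.

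Groups and replicate numbers were taken from the titles. With R 4.3.3 and edgeR 4.0.16, 14852 genes passed filterByExpr, were normalized by TMM and were compared by the quasi-likelihood test with Benjamini-Hochberg adjustment at 0.05. Each SE was derived as the size of the log2 fold change over the square root of the test's F statistic. Confidence intervals used this SE with the t distribution, an approximation. Normalized counts are scaled to the mean library size. The script was tested on simulated data. Transcript rows were fitted the same way. Library totals of 16892255 to 20149732 and a common biological coefficient of variation of 0.0894 set the precision. Receptor ratios were tested by exact permutation. Alternatives included DESeq2 1.42.0, limma 3.58.1 on log2(TPM + 1) and log2(TPM + 0.1), other filters and normalizations, the replicate number as a block, and each library left out in turn. The 10 genes, the pathway and marker lists and the tests were chosen with earlier results of these data known. All 10 genes, called genes of each pathway list (at most 4), the direct ligands and the 2 genes most like each tested member were to be named. Some genes that met this rule, and 1 pathway list, are not reported here. Promoters are from RefSeq (GRCr8). Figures were drawn with matplotlib 3.10.9.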

Additional observations from a re-analysis of the deposited data

How the results depend on the processing

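Of the 10 genes, Bdkrb2, Bdkrb1, Ednra, Npr2 and Npr3 kept their direction and their side of the threshold in 15 of 15 other settings, and Agtr2 in 14 of 14, since requiring 10 counts from each library left it out. Leaving out each library in turn gave log2 fold changes of 1.17 to 1.49 for Bdkrb2, -0.52 to -0.35 for Agtr1a and -0.93 to -0.57 for Ednrb. On log2(TPM + 1) and log2(TPM + 0.1) with limma, Agtr1a (-0.35 and -0.36, adjusted p = 0.0773 and 0.0763) and Ednrb (-0.57 and -0.66, adjusted p = 0.0884 and 0.0899) missed the threshold. The cause was not tested. The count of the 10 genes that were lower, 2, ranged from 0 to 2 when libraries were left out (0 without si-GPD1L replicates 1 or 2, 1 without si-NC replicate 2) and was 0 where a log2 fold change over 1 in size was required too, because neither reached that size. Differences near 0 changed sign with a library left out or another scaling. Ace was at -0.00019 under upper-quartile normalization, and between -0.11 and 0.17 with libraries left out (-0.11 when si-NC replicate 1 and -0.055 when si-GPD1L replicate 3 was left out). Npr1 ran from -0.015 (without si-GPD1L replicate 2) to 0.082, and was at -0.014 when si-NC replicate 1 was dropped. Among transcript rows, leaving out a library reversed Ace (NM_012544.1, from -0.11 to 0.15, with -0.014 and -0.069 between), both rows of Npr1 (NM_012613.1, from -0.030 to 0.056, with -0.020 between, and XM_006232591.3, from -0.025 to 0.065, with -0.011 between) and Npr2 (NM_053838.1, from -0.0031 to 0.16). No receptor ratio changed sign.

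The replicate numbers are not stated to pair the samples. The deviations of same-numbered libraries correlated at 0.041, -0.0037 and 0.047, and those of the other pairs at -0.093 to 0.054. Such values cannot show how the cultures were set up. With the number as a block, the 10 genes still gave 1 higher and 2 lower, with log2 fold changes of 1.36 for Bdkrb2, -0.44 for Agtr1a and -0.74 for Ednrb, and all genes gave 560 higher and 361 lower beside 599 and 346. Counts over all genes moved more under other settings: 1055 higher and 874 lower with no filter beyond 1 count, 655 lower by the exact test, 370 and 173 without si-NC replicate 2, and, with si-GPD1L replicate 1 or 2 left out, 295 and 67 or 305 and 53. Lower calls were 180 without si-GPD1L replicate 3, 668 without si-NC replicate 1 and 637 without si-NC replicate 3. Bdkrb1 and Agtr2, at 40 or fewer counts per library, carry counting error beside the spread between libraries, and a difference of the size of their fitted values could not be told from 0.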
